A study of Mus musculus with 24 samples.

Results

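The proximal end of the mandible was compared with the proximal end of the maxilla in control mouse embryos at embryonic day 13.5. The 6 arrays were chosen by their titles, 3 of the control proximal mandible and 3 of the control proximal maxilla, out of 24 arrays in the study. All arrays are labelled with the C57B6 background. Wnt1cre;Tgfbr2fl/+ mice had been crossed with Tgfbr2fl/fl mice, and control embryos were littermates of the mutants, which showed a cleft palate and a defective skull vault. Every control embryo of this cross therefore carries at least 1 floxed Tgfbr2 allele, and whether a control also carried Cre is not given. In the mutants, labelled Tgfbr2_Knockout, Wnt1-Cre is active in the neural crest and its derivatives, and other cells of the jaw keep the receptor gene. Both jaws were cut into a distal and a proximal end, which gave 8 groups of 3 arrays. The labels do not say whether replicates are separate embryos or pools, and a p-value here reflects only how far these arrays scatter, some of which can be technical.

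Both jaws form from the first pharyngeal arch, which neural crest cells fill with mesenchyme. Endothelin signalling in the lower part of the arch turns on Dlx5, Dlx6 and Hand2 and gives it mandibular identity, and Pou3f3 and Nr2f genes are among the factors of the upper, maxillary part. The proximal ends lie towards the hinge of the jaws, near the jaw joint, the middle ear and the trigeminal ganglion, the cranial ganglion that holds the sensory neurons of the face.

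The 6 arrays were alike in quality. Their medians lay between log2 7.04 and 7.07. The Gapdh control probe sets of the 3′ and 5′ ends differed little (3′ minus 5′), by -0.07 to -0.03 in the mandible and 0.01 to 0.09 in the maxilla, without overlap. Arrays of the same jaw correlated at r = 0.989 to 0.995 over all genes tested and arrays of different jaws at 0.983 to 0.988. No pair of arrays was identical, with 4 to 15 of 45101 probe sets sharing a value. Xist, which coats the inactive X chromosome, was low in replicate 1 of both jaws (log2 6.23 and 6.25) and high in replicates 2 and 3 (13.67 to 13.72), so the pattern of these transcripts was the same in both jaws. Mandible replicate 2 stood apart from the other mandible arrays in the Hox and bone genes described further on, and maxilla replicate 1 in Hand2. Tgfbr2, the floxed gene, read 12.33, 11.94 and 12.28 in the mandible against 12.04, 12.12 and 12.14 in the maxilla, a difference of 0.09 ± 0.11 (adjusted p = 0.962).

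The jaws differed most in genes of sensory neurons, which were higher in the proximal maxilla, and in Hand2, which was higher in the proximal mandible. Of 13850 genes tested, 362 were called (2.61%), 134 higher in the mandible (0.968%) and 228 higher in the maxilla (1.65%). With a log2 difference over 1 there were 119 (0.859%), of which 31 were higher in the mandible and 88 in the maxilla. Differences are given throughout as mandible minus maxilla on the log2 scale with the standard error of the limma fit, and a gene is called where its p, adjusted by Benjamini-Hochberg over all genes tested, is under 0.05. The median difference of all genes tested was 0.01. Counts of called list members given below are to be read beside the 2.61% of all genes tested. In every called gene the 3 mandible arrays did not overlap the 3 maxilla arrays, which also held for 3549 genes (25.6%) of all those tested. The count depended on single arrays. It was 221, 266 and 168 without mandible replicate 1, 2 or 3 and 205, 240 and 136 without maxilla replicate 1, 2 or 3. In whole tissue, fewer cells of a type and less RNA per cell cannot be told apart.

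**Figure D1:**
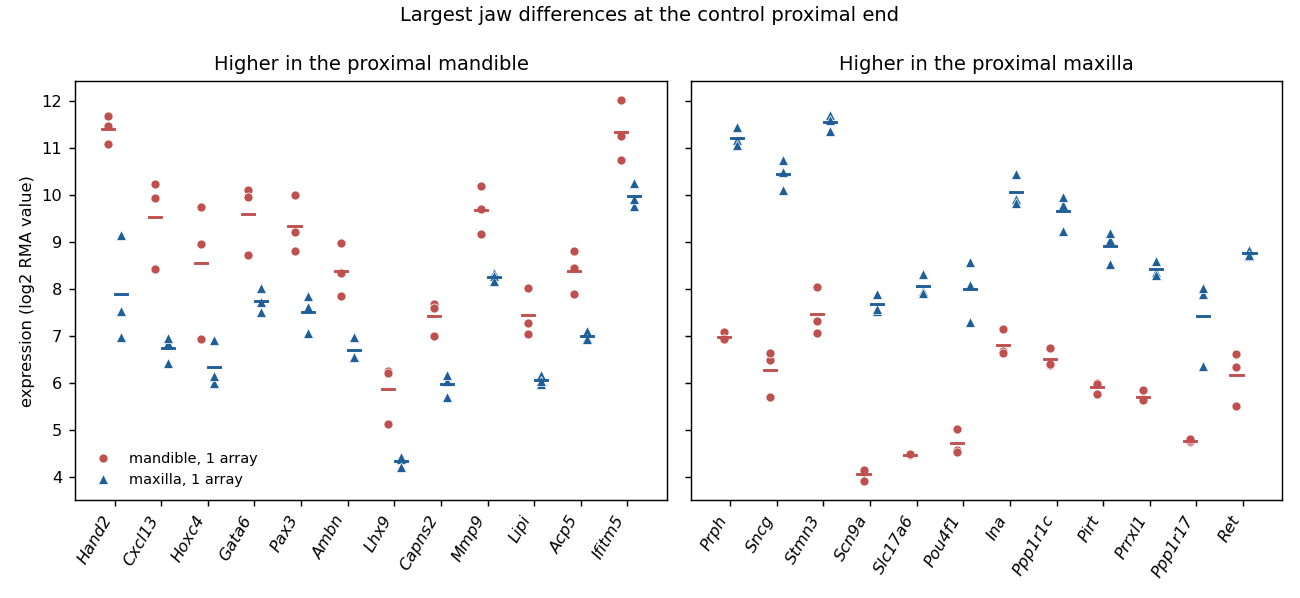
Log2 expression of the 12 genes with the largest called difference in each direction, with 1 point per array, circles for the proximal mandible and triangles for the proximal maxilla, and a line at each mean of 3 arrays. The jaws do not overlap in any of the 24 genes, and Hand2 (11.09 to 11.68 against 6.99 to 9.16) and Prph (6.93 to 7.08 against 11.06 to 11.46) lead their panels.

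Promoters of 4 genes that lead the groups described here are printed first, so that the stretch before each start can be read beside the values. They are the 250 bases before the start in RefSeq (GRCm38.p6), of Prph and Pou4f1, 2 genes higher in the maxilla, and of Hand2 and Ifitm5, 2 genes higher in the mandible. Capitals mark matches to 1 of 4 short motifs searched on both strands, the TATA box TATAAA, the E-box CAGCTG that basic helix-loop-helix factors bind, the homeodomain core TAATTA and the RUNX site TGTGGT. The Prph window is chr15:99054924-99055173 on the plus strand and the Pou4f1 window chr14:104468000-104468249 on the minus strand. The Hand2 window is chr8:57320733-57320982 on the plus strand and the Ifitm5 window chr7:140950244-140950493 on the minus strand.
Prph: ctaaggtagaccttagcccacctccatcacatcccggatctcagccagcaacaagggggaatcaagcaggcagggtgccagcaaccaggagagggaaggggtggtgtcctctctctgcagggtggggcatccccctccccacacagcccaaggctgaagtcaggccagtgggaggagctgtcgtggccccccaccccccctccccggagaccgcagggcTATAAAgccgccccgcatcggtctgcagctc
Pou4f1: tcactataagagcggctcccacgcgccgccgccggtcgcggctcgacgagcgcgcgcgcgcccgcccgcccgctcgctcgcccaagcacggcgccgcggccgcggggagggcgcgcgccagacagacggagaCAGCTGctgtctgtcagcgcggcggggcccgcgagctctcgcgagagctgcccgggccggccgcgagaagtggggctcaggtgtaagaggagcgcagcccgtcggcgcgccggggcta
Hand2: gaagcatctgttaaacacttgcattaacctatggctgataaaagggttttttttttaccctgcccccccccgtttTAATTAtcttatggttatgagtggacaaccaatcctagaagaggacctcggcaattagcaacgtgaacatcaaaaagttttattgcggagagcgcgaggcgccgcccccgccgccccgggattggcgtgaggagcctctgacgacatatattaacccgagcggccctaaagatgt
Ifitm5: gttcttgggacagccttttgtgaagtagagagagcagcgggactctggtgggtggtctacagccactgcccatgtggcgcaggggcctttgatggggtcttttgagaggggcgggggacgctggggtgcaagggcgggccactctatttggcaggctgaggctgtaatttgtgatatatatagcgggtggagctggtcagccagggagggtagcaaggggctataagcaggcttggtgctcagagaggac

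The Prph promoter held TATAAA, its first base 31 bases before the start, the Pou4f1 promoter held CAGCTG at 118 bases and the Hand2 promoter TAATTA at 175 bases, and the Ifitm5 window held none of the 4. A promoter was in the table for 97 of the 134 genes higher in the mandible and 180 of the 228 higher in the maxilla. TATAAA stood in 9.28% of the former and 5.56% of the latter, against 6.87% over all genes tested that have a promoter (11084 genes). CAGCTG stood in 14.4% of both groups and 11.98% of all genes tested. TAATTA stood in 3.09% and 1.11%, against 2.32%, and TGTGGT in 7.22% and 13.3%, against 10.6%. Over the whole table of 27025 promoters the shares were 12.97% for TATAAA, 12.8% for CAGCTG, 4.90% for TAATTA and 14.2% for TGTGGT. A match is only a stretch of letters, and these shares were not tested.

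Genes of sensory neurons led the differences towards the maxilla. Prph, the neurofilament peripherin of peripheral neurons, read log2 7.08, 6.95 and 6.93 in the mandible against 11.17, 11.06 and 11.46 in the maxilla. The maxilla arrays lay far above the mandible arrays, within a narrow range in each jaw. The difference was -4.24 ± 0.54, an 18.9-fold higher level in the maxilla (adjusted p = 0.000556). Another probe set of Prph gave 0.16, and the mean of all its probe sets gave -1.10, which was still called. Sncg, the gamma-synuclein of sensory neurons, read 6.51, 5.71 and 6.65 in the mandible against 10.49, 10.12 and 10.74 in the maxilla (difference -4.16 ± 0.47, adjusted p = 0.000191). Every maxilla array was again above every mandible array.

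Some transcription factors of sensory neurons were part of this group. Pou4f1 (Brn3a) read 4.59, 4.54 and 5.04 in the mandible against 8.10, 7.31 and 8.59 in the maxilla, a 9.68-fold difference (-3.27 ± 0.52, adjusted p = 0.00192). Its mandible values were near the bottom of the scale, and maxilla replicate 2 was the lowest of the maxilla arrays. Prrxl1 (Drg11), a homeodomain factor of pain-sensing neurons, differed by -2.71 ± 0.41 (adjusted p = 0.00161). Isl1, an islet factor that is also made in oral epithelium, read 9.67, 8.51 and 9.35 against 10.97, 10.53 and 10.97 (-1.64 ± 0.34, adjusted p = 0.0106). Other factors of such neurons were not called, with -2.65 for Neurod1 (adjusted p = 0.378), -0.67 for Tlx3 (adjusted p = 0.0583), -0.13 for Shox2, -0.05 for Runx1, 0.08 for Neurog1 and 0.35 for Runx3.

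Some channel and transmitter genes of such neurons were higher in the maxilla as well. Scn9a, the sodium channel Nav1.7 of pain-sensing neurons, read 4.12, 4.16 and 3.91 in the mandible against 7.54, 7.59 and 7.91 in the maxilla (-3.61 ± 0.59, adjusted p = 0.00239). Scn7a, its neighbour among the genes tested on chromosome 2, differed by -2.18 ± 0.44 (adjusted p = 0.0101). Scn9a was thus near the bottom of the scale in the mandible, and both sodium channel genes were higher in the maxilla. Slc17a6, the vesicular glutamate transporter VGLUT2, differed by -3.59 ± 0.55 (adjusted p = 0.00161), and Pirt, a regulator of TRP channels in sensory neurons, by -3.01 ± 0.37 (adjusted p = 0.00042). Averaging all probe sets gave -1.81 for Scn9a and -2.23 for Slc17a6, both still called. Cytoskeletal genes in the group were Stmn3, a stathmin of neurons (-4.08 ± 0.74, adjusted p = 0.00496), and Ina, the neurofilament internexin (-3.25 ± 0.72, adjusted p = 0.017). The touch channel gene Piezo2 (-0.25, adjusted p = 0.89) and the neuropeptide gene Tac1 (-0.83, adjusted p = 0.236) were not called. The phosphatase inhibitor genes Ppp1r1c (-3.14 ± 0.59) and Ppp1r17 (-2.65 ± 0.50) each had an adjusted p of 0.00605.

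Ret, the receptor of glial-derived neurotrophic factors, was the last of the 12 genes with the largest called difference towards the maxilla. It read 5.51, 6.63 and 6.35 in the mandible against 8.72, 8.83 and 8.74 in the maxilla (-2.60 ± 0.41, adjusted p = 0.00177). The maxilla arrays were nearly equal and all above the mandible arrays. The mean of its probe sets gave -1.46, still called.

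In the list of neuronal genes 10 of 17 tested were called, all higher in the maxilla, with a median difference of -1.64 against 0.01 over all genes. Besides Prph, Stmn3, Pou4f1, Ina and Isl1 these were the neuronal tubulin Tubb3 (-2.42), the RNA-binding protein gene Elavl4 (-2.41), the neurofilament gene Nefm (-2.04) and the synaptic genes Snap25 (-1.998) and Syt1 (-1.17). The members that were not called ranged from -1.56 (Stmn2) to 0.24 (Scg2). The mean of the list was 8.34, 8.33 and 8.40 on the mandible arrays and 10.36, 10.09 and 10.40 on the maxilla arrays, with no overlap. The number called was 5, 6 and 5 without mandible replicate 1, 2 or 3 and 5, 8 and 4 without maxilla replicate 1, 2 or 3, and it was 0 when replicate 3 of all 8 groups was left out. In a further list of sensory ganglion genes, chosen after the values were seen, 15 of 27 were higher in the maxilla and none in the mandible (median -1.64). It includes the catecholamine enzyme gene Th (-2.35), the neuropeptide gene Gal (-2.38), the ATP receptor gene P2rx3 (-1.63) and the neuronal splicing factor gene Rbfox3 (-2.11). The receptor genes Ntrk2 (0.56) and Ntrk3 (0.46) of the same list were not called.

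Of 12 genes of Schwann cells, the glia of peripheral nerves, 1 was called, Fabp7, the fatty acid binding protein of glial precursors (-2.05 ± 0.27, adjusted p = 0.000556). It read 10.27, 9.93 and 10.21 in the mandible against 12.29, 11.77 and 12.49 in the maxilla, and the jaws did not overlap. The glial transcription factor gene Sox10 (-0.13) and the receptor gene Erbb3 (-0.18) were not called, and the median of the list was -0.16. The part of ganglion tissue in the other maxilla calls was not tested.

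**Figure D2:**
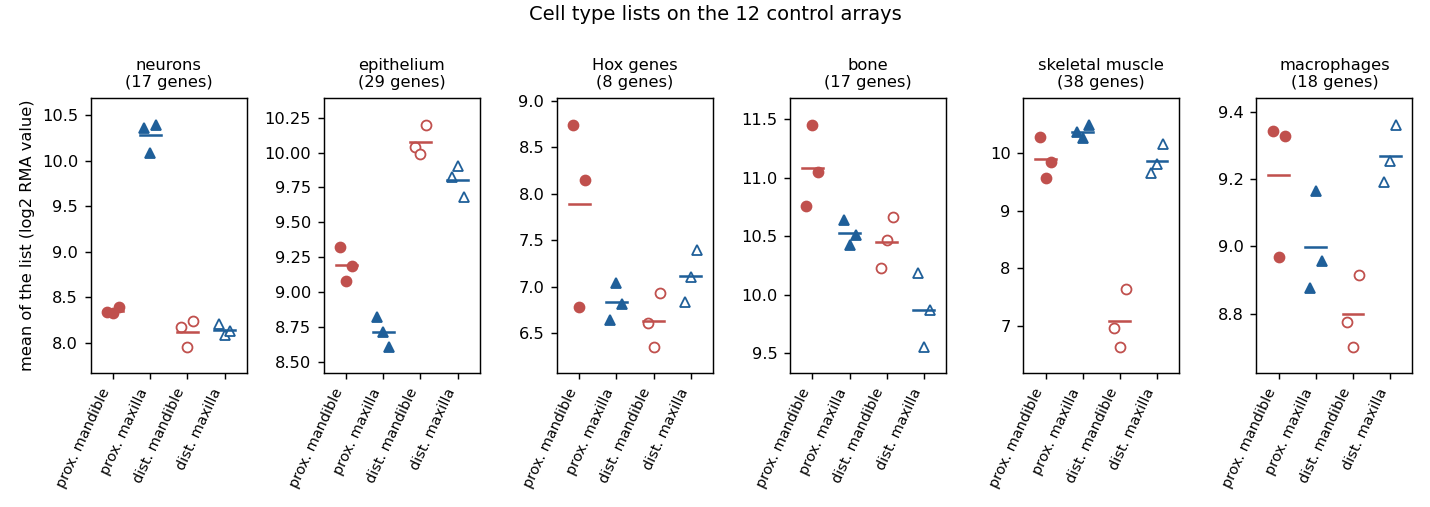
Mean log2 expression of 6 gene lists on each of the 12 control arrays, with filled symbols for proximal and open symbols for distal ends, circles for the mandible, triangles for the maxilla and a line at each mean of 3 arrays. Each panel has its own axis. The neuronal list stands at 10.09 to 10.40 in the proximal maxilla and at 8.33 to 8.40 in the proximal mandible, while both distal groups lie between 7.96 and 8.24.

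Hand2 led the genes higher in the mandible. This helix-loop-helix factor acts downstream of endothelin in the lower jaw. It read 11.09, 11.68 and 11.48 in the mandible against 9.16, 6.99 and 7.54 in the maxilla. The groups did not overlap, and maxilla replicate 1 was above the other maxilla arrays. The difference was 3.52 ± 0.45, or 11.5-fold (adjusted p = 0.000556), and 4.15 without that array. The mean of all Hand2 probe sets gave 1.79, still called.

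Few other jaw identity genes were called at the proximal ends. Of 20 genes tested as markers of jaw identity 3 were called, Hand2, Foxl2 and Pou3f3. Pou3f3, a maxillary POU factor, read 11.04, 11.43 and 11.15 in the mandible against 11.62, 12.02 and 11.73 in the maxilla (-0.58 ± 0.13, adjusted p = 0.0224). All maxilla arrays were above the mandible arrays, but the call was lost with the mean of its probe sets (adjusted p = 0.27) and without mandible replicate 1 or 3 or maxilla replicate 2 or 3 (adjusted p = 0.0714 to 0.134).

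None of the 8 genes of the Dlx family was called, and their median was -0.22. Dlx5 gave -0.19 (95% interval -0.58 to 0.19), Dlx6 -0.18 (-0.65 to 0.30) and Dlx3 0.80 (0.31 to 1.29, adjusted p = 0.087). Dlx3, a gene of the lower arch, read 9.09, 9.07 and 9.25 in the mandible against 8.27, 8.21 and 8.52 in the maxilla, without overlap. Gsc, a homeobox factor of the lower jaw and middle ear, gave 1.10 ± 0.36 (adjusted p = 0.151), and Pitx1, a homeobox factor of the mandible and hind limb, 0.97 ± 0.37 (adjusted p = 0.254). For both, every mandible array was above every maxilla array, and maxilla replicate 2 was the lowest array. Hand1 gave 0.15. Among maxillary factors Nr2f1 (COUP-TFI) gave -0.52 ± 0.20 (adjusted p = 0.253), Meox2 -0.80 ± 0.29 (adjusted p = 0.216), Nr2f2 -0.26, Shox2 -0.13 and Tbx22 -0.39.

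In the endothelin and mandibular list 2 of 17 were called, Hand2 and, higher in the maxilla, the transcriptional co-regulator Cited1 (-0.72 ± 0.16, adjusted p = 0.0192). The number was 1 without mandible replicate 1 or 3 or maxilla replicate 2 or 3. In the list of maxillary regulators 3 of 16 were called, Foxl2 and Pou3f3 higher in the maxilla and the zinc finger gene Tshz1 higher in the mandible (0.50 ± 0.12, adjusted p = 0.0251, not called with the mean of its probe sets), and the number was 1 without mandible replicate 1 or 3 or maxilla replicate 2 or 3. The medians of these lists were 0.10 and -0.08.

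**Figure D3:**
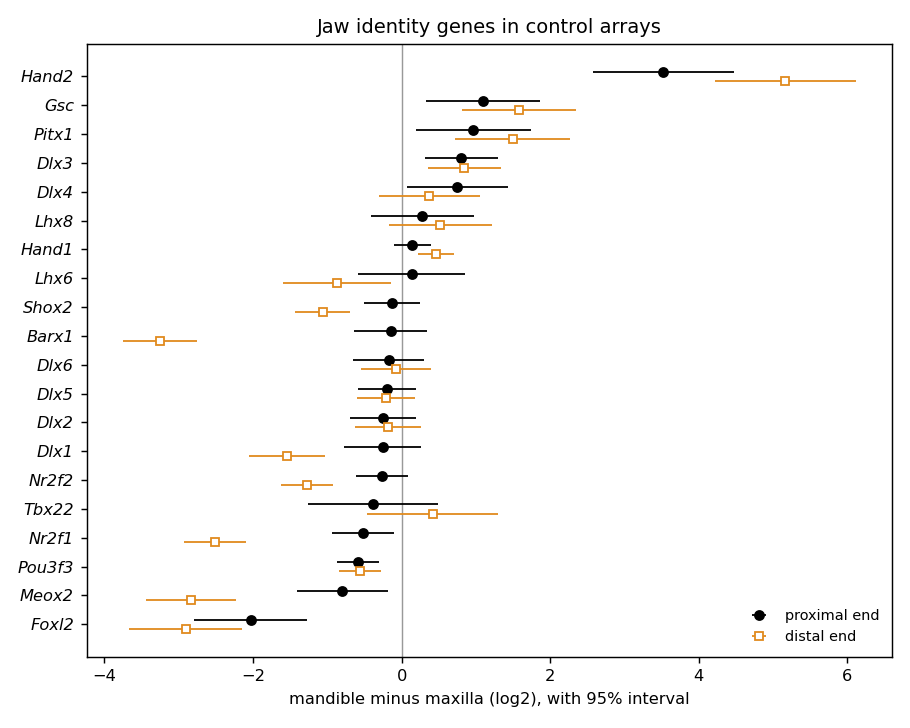
Mandible minus maxilla difference (log2) of 20 jaw identity genes in control arrays, with filled circles for the proximal end, open squares for the distal end and 95% intervals from the limma fit. The 3 genes called at the proximal end are Hand2 (2.57 to 4.47), Foxl2 (-2.79 to -1.27) and Pou3f3 (-0.87 to -0.30), while 13 of the 20 genes were called at the distal end.

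Foxl2, a forkhead factor known from eyelid, ovary and pituitary, had the largest difference towards the maxilla among the 20 identity genes tested. It read 8.50, 8.12 and 8.49 in the mandible against 10.46, 10.82 and 9.92 in the maxilla (-2.03 ± 0.36, 4.09-fold, adjusted p = 0.00449), without overlap. The mean of its probe sets gave -1.11, still called. The neighbouring opposite-strand transcript Foxl2os read 7.51, 6.54 and 7.25 against 9.83, 10.06 and 9.16 (-2.58, adjusted p = 0.00418), in the same order of jaws. Foxl2os and the next genes were picked after their values were seen. Crh, which encodes corticotropin-releasing hormone, read 7.99, 7.95 and 8.53 against 10.57, 10.73 and 10.75 (-2.53 ± 0.40, adjusted p = 0.00207). Fgf5, a fibroblast growth factor, differed by -2.14 (adjusted p = 0.00354) and the photoreceptor cadherin gene Cdhr1 by -2.14 (adjusted p = 0.00042).

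Of 10 genes of the Alx, Pax and frontonasal list 3 were called. Zic2, a zinc finger factor of the dorsal neural tube and crest, read 4.57, 4.83 and 4.56 in the mandible against 6.60, 7.76 and 6.96 in the maxilla (-2.45 ± 0.40, adjusted p = 0.00239). Its mandible arrays were near the bottom of the scale. Pax3, a factor of neural crest and muscle progenitors, read 8.81, 9.999 and 9.22 in the mandible against 7.63, 7.86 and 7.06 in the maxilla (1.82 ± 0.45, adjusted p = 0.0311). Tfap2a, an AP-2 factor of crest and surface ectoderm, was also higher in the mandible (0.82 ± 0.13, adjusted p = 0.00239), and its call was lost with the mean of its probe sets (0.51, adjusted p = 0.0557). The frontonasal homeobox gene Alx1 gave -1.41 ± 0.57 and was not called (adjusted p = 0.296).

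Cxcl13 and Gata6 were higher in the mandible, and their mandible arrays did not read alike. Cxcl13, a chemokine that attracts B cells, read 9.93, 8.43 and 10.25 in the mandible against 6.86, 6.96 and 6.43 in the maxilla (2.79 ± 0.53, adjusted p = 0.00661). Gata6, a zinc finger factor of heart and endoderm, read 10.11, 8.73 and 9.96 against 7.52, 8.03 and 7.73 (1.85 ± 0.30, adjusted p = 0.00207), and 1.20 with the mean of its probe sets. In both genes mandible replicate 2 was the lowest mandible array and still above the maxilla.

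Hox genes are silent in the crest of the first arch and expressed in the second arch and behind it. Hoxc4 read 9.76, 6.94 and 8.97 in the mandible against 5.998, 6.91 and 6.15 in the maxilla (2.20 ± 0.51, adjusted p = 0.024). Mandible replicate 2 lay just above the highest maxilla array, and replicates 1 and 3 lay far above it. Hoxa2, the selector gene of the second arch, read 9.08, 5.84 and 8.61 against 5.63, 6.02 and 7.09 (adjusted p = 0.364), so its mandible replicate 2 lay among the maxilla arrays. Of 8 Hox genes 1 was called, and the mean of the list was 8.74, 6.78 and 8.15 on the mandible arrays and 6.64, 7.04 and 6.81 on the maxilla arrays. Without mandible replicate 2, 4 Hox genes were called, and without mandible replicate 1 or 3 or maxilla replicate 1 or 3 none was. Hoxc4 gave 3.01 without mandible replicate 2 and lost its call without mandible replicate 1 or 3 or maxilla replicate 1 or 3. The part of tissue from behind the first arch in the mandible calls was not tested.

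Genes of bone and of bone resorption were among the mandible calls. Ifitm5, a membrane protein of osteoblasts, read 10.76, 12.03 and 11.27 in the mandible against 10.27, 9.78 and 9.91 in the maxilla (1.37 ± 0.30, adjusted p = 0.0164). Mandible replicate 2 was the highest array. It was the called member of 17 bone genes (5.88%, against 2.61% of all genes tested), whose median was 0.62. The number called was 0 without mandible replicate 2 or 3 or maxilla replicate 2 or 3 and 2 without mandible replicate 1. The mean of the list was 10.76, 11.45 and 11.05 on the mandible arrays and 10.64, 10.43 and 10.51 on the maxilla arrays. Ibsp (bone sialoprotein, 1.24 ± 0.51, adjusted p = 0.32) and Phex (an endopeptidase of osteoblasts, 1.27 ± 0.39, adjusted p = 0.116) were not called.

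Mmp9, a gelatinase of osteoclasts, read 9.17, 10.19 and 9.71 in the mandible against 8.36, 8.29 and 8.17 in the maxilla (1.42 ± 0.25, adjusted p = 0.00398). Acp5, the tartrate-resistant phosphatase of osteoclasts, read 7.90, 8.82 and 8.45 against 6.96, 7.11 and 6.95 (1.38 ± 0.26, adjusted p = 0.0066). In both the jaws did not overlap, and mandible replicate 2 was again the highest. They were the called members of 10 osteoclast genes in a list chosen after the values were seen. Of 18 macrophage genes none was called, and their median was 0.20.

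In the cartilage list 1 of 25 was called, the parathyroid hormone receptor gene Pth1r (0.47 ± 0.11, adjusted p = 0.0251), and 0 without mandible replicate 2 or 3 or any 1 of the maxilla arrays. The median of the list was 0.22, and 4% of it was called, against 2.61% of all genes tested. Ambn, the enamel protein ameloblastin, read 7.86, 8.996 and 8.34 in the mandible against 6.98, 6.57 and 6.56 in the maxilla (1.69 ± 0.41, adjusted p = 0.0282), without overlap. Lhx9, a LIM homeobox gene, had low values of 5.14, 6.26 and 6.21 against 4.38, 4.22 and 4.43 (1.53 ± 0.34, adjusted p = 0.0192), and 0.99 with the mean of its probe sets. The tooth list had 3 of 20 called. Wnt10a, a WNT ligand of tooth epithelium (0.65 ± 0.14, adjusted p = 0.0121), was higher in the mandible, and Isl1 and the growth factor gene Fgf9 (-0.66 ± 0.15, adjusted p = 0.0247) were higher in the maxilla. Between 0 (without maxilla replicate 3) and 2 of the tooth genes were called without any 1 array, and 1 without mandible replicate 2 or 3 or maxilla replicate 1.

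Some epithelial genes were higher in the mandible. Of 29 epithelial genes 9 were called, all higher in the mandible, and the median was 0.53. They were the basal keratins Krt14 (0.91) and Krt5 (0.83), the adhesion genes Cdh1 (0.64), Cldn4 (0.85), Dsp (0.53) and Dsg2 (0.74), the desmosomal p53 target Perp (1.03), the epithelial splicing factor Esrp1 (0.86) and stratifin (Sfn, 0.82). Krt14, the keratin of basal cells, read 11.25, 11.26 and 10.99 in the mandible against 10.15, 10.53 and 10.08 in the maxilla (adjusted p = 0.00398). The keratins of simple epithelium Krt8 (0.11) and Krt18 (0.05) were not called. The mean of the list was 9.32, 9.08 and 9.19 on the mandible arrays and 8.82, 8.71 and 8.61 on the maxilla arrays, without overlap. The number called was 2, 10 and 2 without mandible replicate 1, 2 or 3 and 6, 5 and 2 without maxilla replicate 1, 2 or 3.

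In a list of stratified epithelium genes chosen after the values were seen, 8 of 18 were called, all higher in the mandible. The called members with the largest difference were Capns2, a calpain subunit of skin (1.45 ± 0.33, adjusted p = 0.0224), and Grhl1, a grainyhead factor of epidermis (1.31 ± 0.25, adjusted p = 0.00713), while Krtdap, a keratinocyte protein gene, gave 1.59 and was not called (adjusted p = 0.106). The number was between 1 (without maxilla replicate 3) and 8 without any 1 array, and it was 2 without mandible replicate 1 or 3 and 3 without maxilla replicate 1. The metallothionein genes Mt1 (0.82) and Mt2 (0.77), neighbours on chromosome 8 and picked after their values were seen, were higher in the mandible as well.

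The WNT list had 5 of 42 called, all higher in the mandible. WNT pathway genes outside the list went both ways. The receptor gene Fzd8 (-0.53, adjusted p = 0.0106) and the effector gene Tcf7l2 (-0.48, adjusted p = 0.00534) were higher in the maxilla, and Rnf43 (0.74, adjusted p = 0.0172) in the mandible. These were picked after their values were seen. The called list members were the ligand gene Wnt10a, the receptor genes Fzd6 (0.64 ± 0.15, adjusted p = 0.0242) and Fzd10 (0.72 ± 0.17, adjusted p = 0.0233), the secreted inhibitor Wif1 (0.85 ± 0.21, adjusted p = 0.0337) and the feedback inhibitor Nkd1 (0.62 ± 0.15, adjusted p = 0.0251). Averaged over probe sets, Fzd10 and Fzd6 gave 0.47 and 0.38 and were not called (adjusted p = 0.103 and 0.0558). The number called was 1, 5 and 0 without mandible replicate 1, 2 or 3 and 0, 2 and 0 without maxilla replicate 1, 2 or 3. The median of the list was 0.18. Of 21 FGF genes in the list 2 were called, the receptor gene Fgfr2 (0.36 ± 0.08, adjusted p = 0.0192, not called with the mean of its probe sets) higher in the mandible and Fgf9 higher in the maxilla, and none without mandible replicate 2 or maxilla replicate 2 or 3, 1 without mandible replicate 3 or maxilla replicate 1. Outside the list, Fgf5 (-2.14) and Fgf13 (-1.11, adjusted p = 0.0167) were also called higher in the maxilla.

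Tendon genes had 2 of 15 called, both higher in the maxilla, the matrix proteoglycan fibromodulin (Fmod, -1.01 ± 0.23, adjusted p = 0.0192) and the homeobox factor Mkx (-0.67 ± 0.17, adjusted p = 0.0394). None was called without mandible replicate 1 or 3 or maxilla replicate 2 or 3, and 1 without maxilla replicate 1. In the palate list 2 of 27 were called, Fgfr2 and, higher in the maxilla, Mn1, a palate regulator (-0.40 ± 0.10, adjusted p = 0.0344). None of the palate genes was called without mandible replicate 2 or maxilla replicate 2 or 3, and 1, Fgfr2, without any other array. Mn1 lost its call whichever array was left out (adjusted p = 0.0735 to 0.144). Otor, a secreted protein of the inner ear cartilage, read 10.58, 11.48 and 10.86 in the mandible against 12.36, 12.37 and 12.54 in the maxilla (-1.45 ± 0.25, adjusted p = 0.00386). Single calls of other lists were Epha2 (0.45) of 19 Eph and ephrin genes, Sema6a (-0.36) of 27 axon guidance genes and Egln3 (-0.60) of 23 hypoxia genes. The shares called were 5.26%, 3.70% and 4.35%, and 4.76% in the matrix list given next, against 2.61% of all genes tested. In the matrix list of 42 genes Col13a1 was higher in the mandible (1.17 ± 0.19, adjusted p = 0.00207) and Fbln5 in the maxilla (-0.50 ± 0.13, adjusted p = 0.0404), with 1 called without any 1 array. The calls of Fbln5 and Sema6a were also lost with the mean of their probe sets. Epha2 was not called without mandible replicate 2 or maxilla replicate 3, Egln3 not without mandible replicate 1 or maxilla replicate 3, Sema6a without any array other than maxilla replicate 1, and Fbln5 without any 1 array.

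No member was called among 24 BMP, 25 TGF-beta, 15 hedgehog, 15 retinoic acid and 15 Notch genes, whose medians lay between -0.10 and 0.09. Nor was any called among 17 neural crest mesenchyme, 19 endothelial, 9 red blood cell, 31 cell cycle and 21 immediate early and heat shock genes. The same held for 10 smooth muscle, 10 eye and pigment, 6 brain and pituitary and 9 olfactory genes. Medians of these lists lay between -0.26 (olfactory) and 0.11 (immediate early and heat shock). The list means did not overlap for olfactory genes (8.69 to 8.75 in the mandible, 8.93 to 9.02 in the maxilla) and brain genes (7.22 to 7.31, 7.71 to 7.82), among others. Of 38 skeletal muscle genes none was called, with a median of -0.48 and 36 of them below 0. The mean of the muscle list was 10.28, 9.57 and 9.84 on the mandible arrays and 10.37, 10.26 and 10.50 on the maxilla arrays, which overlapped.

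Of the genes named by rule 58 were called, and 28 of them were called whichever of the 6 arrays was left out. Among these were Hand2, Gata6, Mmp9, Acp5, Col13a1 and Krt14 on the mandible side and Prph, Sncg, Stmn3, Scn9a, Slc17a6, Pou4f1, Pirt, Prrxl1, Ret, Foxl2, Zic2, Fabp7 and Otor on the maxilla side. Without maxilla replicate 3, 29 of the calls were lost, and 26, 19, 18, 17 and 14 were lost without mandible replicate 3, maxilla replicate 2, mandible replicate 1, maxilla replicate 1 and mandible replicate 2. When replicate 1, 2 or 3 of all 8 groups was left out, 31, 33 and 1 of the 58 stayed called. With the 6 proximal control arrays alone and a replicate block 30 did. Ambn, Lhx9 and Pax3 were not called without mandible replicate 2 or 3 or any 1 maxilla array, and Ina not without mandible replicate 1 or 3 or maxilla replicate 1 or 3. Cxcl13 lost its call without mandible replicate 3, and Isl1 without mandible replicate 2 or maxilla replicate 3. Capns2, Wnt10a and Perp lost theirs without mandible replicate 1 or 3 or maxilla replicate 3, and Capns2 and Wnt10a also without maxilla replicate 1.

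The distal ends were used to ask whether the proximal jaw difference is shared along the jaw. They gave 1275 calls (9.21%), and the proximal and distal comparisons share no array. Of the 362 proximal calls 106 were called distally in the same direction, which is 29.3% of the proximal and 8.31% of the distal calls, and 8 were called in the opposite direction. The difference between the ends itself was called for 378 genes (2.73%), with 221 more towards the mandible at the proximal end and 157 more towards the maxilla. Of these, 272 were called at the distal end only, 70 at the proximal end only, 8 at both in opposite directions and 2 at both in the same direction. The number was 153, 460 and 167 without proximal mandible replicate 1, 2 or 3 and 172, 312 and 177 without proximal maxilla replicate 1, 2 or 3. It was 215, 154 and 333 without distal mandible replicate 1, 2 or 3 and 326, 204 and 180 without distal maxilla replicate 1, 2 or 3.

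Of the 17 neuronal genes 8 had a called difference between the ends, and their distal median was -0.20. Prph read 6.06, 6.03 and 5.98 in the distal mandible and 6.24, 6.56 and 6.75 in the distal maxilla, all below the proximal mandible. Its proximal minus distal difference was -3.75 (adjusted p = 0.0118). Ret went in opposite directions at the ends. It read 8.52, 8.35 and 8.29 in the distal mandible and 5.79, 6.12 and 5.42 in the distal maxilla (2.61, adjusted p = 0.000286), so the distal mandible and the proximal maxilla were its high groups. The difference between the ends was -5.21 (adjusted p = 0.000198). Isl1 (1.11) and Snap25 (1.47) were likewise higher in the distal mandible, with differences between the ends of -2.75 and -3.47 (adjusted p = 0.00435 and 0.00587). Gata6 gave -0.90 distally (adjusted p = 0.0703), and its difference between the ends was 2.74 (adjusted p = 0.00281).

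Hand2 and Foxl2 were called at both ends. Hand2 read 13.28, 13.45 and 13.17 in the distal mandible and 7.91, 8.74 and 7.75 in the distal maxilla (5.16, adjusted p = 1.13e-06). Its difference between the ends was -1.64 and was not called (adjusted p = 0.231). Foxl2 gave -2.90 distally, and Crh -4.74, with a difference between the ends of 2.21 for Crh (adjusted p = 0.0417). Of the 29 epithelial genes 5 were called distally, all higher in the mandible, with a distal median of 0.30. Of the 17 bone genes 7 were, also all higher in the mandible, with a distal median of 0.64. The difference between the ends was called for 0 genes of either list.

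Of the 20 identity genes 13 were called distally and 4 had a called difference between the ends, Barx1, Nr2f1, Nr2f2 and Meox2. Barx1, a homeobox factor of proximal jaw mesenchyme and molar teeth, read 11.61, 11.90 and 11.80 in the proximal mandible and 12.14, 11.61 and 11.99 in the proximal maxilla. These groups overlapped (-0.15 ± 0.24, adjusted p = 0.987). It read 8.58, 8.51 and 8.51 in the distal mandible and 11.69, 11.77 and 11.90 in the distal maxilla, so the distal mandible alone was low, and the difference between the ends was 3.11 ± 0.33 (adjusted p = 0.000198). Nr2f1 gave -2.52 distally with a difference between the ends of 1.99 (adjusted p = 0.00161), and Meox2 -2.84 with 2.04 (adjusted p = 0.0104). Of the 38 skeletal muscle genes 36 were called distally, all higher in the maxilla, and 21 had a called difference between the ends. Tnnc1, a muscle troponin, read 12.69, 12.10 and 12.29 against 12.88, 12.76 and 12.87 proximally and 7.91, 7.55 and 9.05 against 12.08, 12.25 and 12.57 distally.

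**Figure D4:**
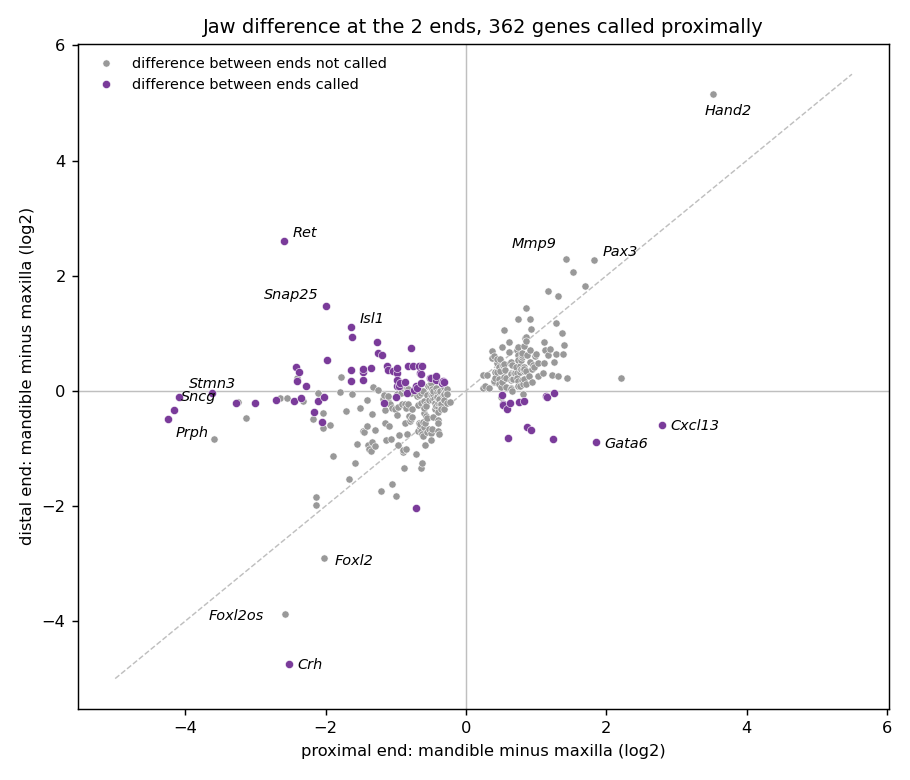
Mandible minus maxilla difference (log2) of the 362 genes called at the proximal end, on the x axis, against the difference of the same genes at the distal end, on the y axis, with 1 point per gene and the dashed line marking equal differences. Purple points are the 80 genes with a called difference between the ends, among them Prph and Sncg near 0 on the y axis and Ret at -2.60 and 2.61, while Hand2 and Foxl2 lie to the same side at both ends.

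The last comparison asked whether the proximal jaw difference is the same in Tgfbr2 mutants. The mutant proximal ends gave 788 calls (5.69%). Of the 362 control calls 212 were called in mutants, all in the same direction, which is 58.6% of the control and 26.9% of the mutant calls, and 344 had the same sign. The difference between the genotypes itself was called for 0 genes (0.0%) with limma, with a smallest adjusted p of 0.305 and 596 genes (4.30%) at an unadjusted p under 0.05. It was called for 6 genes with the arrays of 1 replicate number as a random block. Without control mandible replicate 2 it was called for 26 genes, without mutant maxilla replicate 2 for 14 and without mutant maxilla replicate 1 or 3 for 1. The mean of 4 sex-linked genes was 9.03 to 10.27 on the mutant proximal arrays. On the control proximal arrays it was 8.92 and 9.07 in replicate 1 and 6.21 to 6.46 in replicates 2 and 3. Sex-linked genes were thus not matched between the genotypes, and the part of sex in this comparison was not tested.

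Among named genes Hand2 differed by 4.11 in mutants (adjusted p = 1.98e-05), Prph by -2.90 (adjusted p = 0.00278) and Foxl2 by -1.95 (adjusted p = 0.00273). Ifitm5 gave 3.12 in mutants and 1.37 in controls, and Sncg -1.31 and -4.16. The adjusted p of the difference between genotypes was 0.328 for both, so neither passed the test. In the bone list 12 of 17 genes were called in mutants, all higher in the mandible, with a median of 1.87 against 0.62 in controls. In the neuronal list 9 of 17 were called in mutants, all higher in the maxilla, with a median of -1.27. The number of neuronal genes was 5, 7 and 5 without mutant mandible replicate 1, 2 or 3. It was 6, 5 and 13 without mutant maxilla replicate 1, 2 or 3. The number of bone genes lay between 9 and 11 with any 1 of these mutant arrays left out. None of the 29 epithelial genes was called in mutants, and their median was -0.09. The mean of the epithelial list was 9.02, 9.11 and 9.21 on the mutant mandible arrays and 9.56, 8.98 and 8.999 on the mutant maxilla arrays, so mutant maxilla replicate 1 stood above the other 5. Without that array the median was 0.11 and none was called, and 1 and 2 were called without mutant maxilla replicate 2 and 3.

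**Figure D5:**
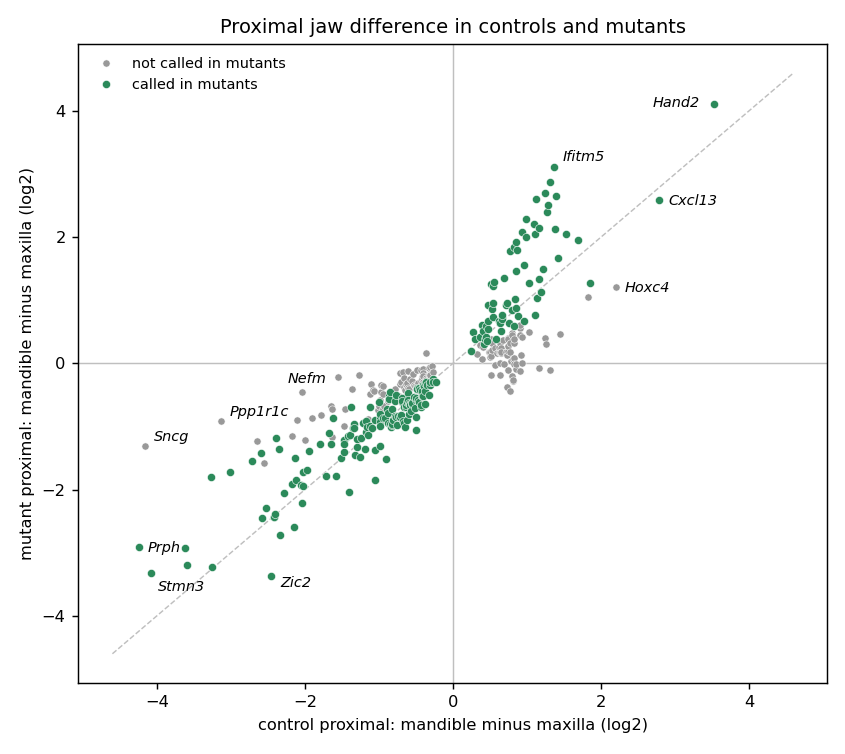
Proximal mandible minus maxilla difference (log2) of the 362 genes called in controls, on the x axis, against the difference of the same genes in Tgfbr2 mutants, on the y axis, with 1 point per gene and the dashed line marking equal differences. Green points are the 212 genes also called in mutants, and Hand2 (3.52 and 4.11) and Prph (-4.24 and -2.90) lie on the same side in both genotypes.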

How the data were processed

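Labelled cRNA of mouse jaw ends was hybridised to single-colour expression arrays. The authors deposited 1 table of log2 values for all 24 arrays, produced by RMA according to the deposited labels and per the submitters' processing notes (version not stated there). Of 45101 probe sets 34958 carried 1 gene symbol in the platform annotation, 932 several and 9211 none, and 34754 of the first matched a RefSeq gene by gene ID. Each of 18194 genes was represented by 1 probe set, the one with the highest mean over all arrays. A gene was tested when it exceeded its array's 40th percentile on at least 3 arrays (13850 genes). This percentile was log2 6.3 on average. The control proximal mandible arrays of Scn9a, Pou4f1 and Zic2 lay below it, so these genes passed the filter through other arrays. Lhx9 lay below this average on the control proximal arrays of both jaws.

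Linear models were fitted with limma 3.58.1 in R 4.3.3 on all 8 groups of 3 arrays without a block, with empirical Bayes moderation and Benjamini-Hochberg adjustment over all genes tested. The random block used statmod 1.5.0. Genes were called at an adjusted p under 0.05. The code was tested on simulated data. By rule, the text names the jaw identity genes (1 is not reported here), the 12 genes with the largest called difference in each direction (clones and predicted genes left out), up to 4 called members of each gene list with the largest difference, the 8 called genes with the smallest p each way for the difference between ends, and Tgfbr2. Gene lists and members were chosen with earlier results of these data known, and the sensory ganglion, osteoclast and stratified epithelium lists after the values were seen. Other genes named, such as Scn7a, Foxl2os, Crh, Mt1, further called members of the neuronal and epithelial lists and list members that were not called, were also chosen after their values were seen. Alternatives changed the probe set rule, the filter, the normalization, the prior, the block, the arrays fitted, the call rule and the replicates left out. The number of arrays limits the precision.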

Additional observations from a re-analysis of the deposited data

Results flagged for a closer look

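The jaw difference itself differed between the proximal and distal ends of control jaws for 16 genes picked by the smallest p, tested in limma as the proximal minus the distal difference with an adjusted p under 0.05 for each. A value above 0 means a jaw difference further towards the mandible proximally than distally, not a higher level in the proximal mandible. This value was 3.11 for Barx1, 3.66 for the troponin gene Tnnc1, 2.89 for the thyroid hormone binding protein gene Crym and 2.42 for the neuronal adhesion gene Slitrk1. It was 1.99 for Nr2f1, 1.72 for the matrix gene Smoc2, 1.50 for the zinc finger gene Zfp385b and 1.42 for BC035044. The proximal difference itself was -0.15 for Barx1, -0.48 for Tnnc1 and -0.52 for Nr2f1, none of them called. Those of Crym, Slitrk1 and Smoc2 were not called either. Zfp385b was 0.87 proximally and -0.63 distally, and BC035044 0.59 and -0.83, both called proximally.

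Further towards the maxilla proximally than distally, this value was -5.21 for Ret, -3.18 for the homeobox gene Msx2, -2.55 for the small GTPase gene Diras2 and -2.51 for the kinesin gene Kif5a. It was -1.65 for the WNT agonist gene Rspo3, -1.52 for the axon guidance gene Draxin, -1.48 for the potassium channel subunit gene Kcnmb2 and -1.28 for the zinc finger gene Sall4. The proximal difference itself was not called for Rspo3 (-0.56, adjusted p = 0.101) and Sall4. Msx2 read 8.36, 8.34 and 8.86 in the proximal mandible and 9.50, 10.09 and 9.38 in the proximal maxilla, a proximal difference of -1.13 that was not called (adjusted p = 0.105), and its distal difference was 2.04 (adjusted p = 0.000563). Averaged over probe sets, the proximal difference was -0.45 for Draxin, -0.81 for Diras2 and -0.84 for Kif5a, against -0.78, -1.62 and -1.97.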

How the results depend on the processing

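None of the 58 called genes named by rule changed direction in any alternative run, and of the 25 not called 6 did (Barx1, Dlx6, Lhx8, Sall4, Slitrk1 and Tgfbr2), reaching at most 0.0996 on the other side of 0. The 362 proximal calls became 853 with the 12 control arrays alone, 610 with the 6 proximal control arrays alone and 119 with a log2 difference over 1, and lay between 7 (without replicate 3 of all 8 groups) and 266 when arrays were left out. The 378 calls for the difference between ends became 1064 with the 12 control arrays, and lay between 16 and 460 when arrays were left out. The 0 calls for the difference between genotypes became 6 with a random replicate block and lay between 0 and 26 when arrays were left out. Replicate numbers are shared by the groups, but the labels do not say that a number pairs samples. The deviations of same-numbered proximal arrays correlated at 0.26, 0.00 and 0.34 in the 3 pairs. Pairs of the jaws with different numbers lay between -0.39 and 0.09, the highest being maxilla replicate 2 with mandible replicate 3. Replicates 1 and 3 of each jaw thus correlated best with their own number in the other jaw, and maxilla replicate 2 did not. The main fit has no block, and fits with a block are given next. The estimated correlation within a replicate block was 0.4, and the mean of 4 sex-linked genes was 8.92 to 9.12 in replicate 1 and 6.21 to 6.46 in replicates 2 and 3 of the 4 control groups. With a fixed replicate block the proximal calls were 664 and the calls between ends 769, and with a random replicate block 769 and 960. The number of arrays limits which differences could be called, and low probe sets such as Pou4f1 in the mandible lie near the bottom of the scale.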
